A study of Homo sapiens with 7 samples.

Results

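Collagens, laminins, integrins and a few further proteins of the extracellular matrix make up a module of 60 genes out of 13142 in a table of expression in BHT-101 cells, a human line from an anaplastic thyroid cancer. The genes were chosen by symbol: 22 collagen chains, 9 laminin chains, 20 integrin subunits, FBN1, FBN2, FN1, LUM, HAPLN1, SPARC, NID1 and HSPG2, and ITGBL1, whose symbol follows the integrin pattern although its product is a secreted protein and no integrin subunit. The rule reads symbols only, but it was set with earlier results of these data known. RNA sequencing compared 4 clones with premature stop codons in ASH1L (KO), 1 library each, with 3 biological replicates of wild-type cells (WT). ASH1L is a histone methyltransferase that marks active genes. The labels place the stop behind residue 413 in KO1, residue 610 in KO2 and residue 2129 in KO3, on both alleles in each, and behind residues 2169 and 2174 in KO4. KO1 and KO2 are called early-stop clones below and KO3 and KO4 late-stop clones. All 7 libraries came from the same line in the same growth medium, and each clone is a line of its own, so clone-to-clone differences and effects of the ASH1L stop codons cannot be told apart without a clone that has intact ASH1L, and none was analysed here.

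The basement membrane is a thin sheet of collagen IV and laminin networks, tied together by nidogen and perlecan, on which epithelial cells sit. Fibrillar collagens, fibronectin and fibrillin form the fibres of the tissue beyond that sheet. Integrins are receptors of an alpha and a beta subunit that hold cells to laminin, collagen or fibronectin and pass signals inward, and thyroid follicles, like other epithelia, rest on such a basement membrane. Collagen and laminin molecules are each built from 3 chains, so the chains of 1 molecule are given together below.

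Levels are log2 RPKM, the logarithm of reads scaled to gene length and library size, so that 1 unit is a factor of 2 and levels of different genes are per length. Libraries held an estimated 43.9 to 70.4 M reads in the KO clones, against 56.3 to 63.0 M in WT. ASH1L itself was at 2.69, 2.54, 2.42 and 3.74 log2 RPKM in KO1 to KO4, against 3.34, 3.30 and 3.22 in WT1 to WT3, so it was below WT in 3 clones and above it in KO4; a stop codon need not lower a transcript. Over the tested genes the median SD was 0.30 log2 units among the clones and 0.10 among the WT libraries. Epithelial markers were well represented, 9 of 10 in the table with ESRP1 as the exception, and their summed RPKM was 322 to 710 in the clones, against 604 to 723 in WT. CDH1, the epithelial cadherin, was at -5.86, 1.96, -2.20 and -2.83 log2 RPKM in KO1 to KO4, against 0.75, 0.78 and 0.47 in WT1 to WT3, so it was above WT in KO2 and below it elsewhere. The other epithelial markers did not all follow CDH1. KRT8 did, and KRT18 was below WT in every clone. CLDN1 was above WT in KO1 to KO3 and below it in KO4. EPCAM was above WT in KO2 and KO3 and below it in KO1 and KO4. The clones overlapped WT in KRT7, KRT19, CLDN4 and OCLN. Of thyroid markers 2 of 10 were in the table (PAX8 and DIO2, summed RPKM 0.543 to 15.6 in the clones and 0.731 to 1.30 in WT), and TG and TSHR were not among them. Markers of fibroblasts (3 of 10; PDGFRB, THY1 and DCN not among them) summed to 273 to 1153 RPKM in the clones, against 1024 to 1120 in WT, nearly all of it S100A4. Those of endothelium (2 of 9; CDH5 and VWF not among them) summed to 0.649 to 6.34 in the clones and 10.6 to 11.6 in WT, and those of leukocytes (2 of 15; PTPRC not among them) to 0.479 to 2.99 in the clones and 9.09 to 11.9 in WT. The WT sums were mostly ESAM for endothelium and CD3D for leukocytes. PECAM1, the other endothelial marker, was above WT in KO2 and KO4 and below it in KO1 and KO3. CD14, the other leukocyte marker, overlapped WT. All libraries came from the same line, so these sums are levels of marker genes and not shares of fibroblasts, endothelium or leukocytes. The part of these differences in the results below was not tested. In bulk RNA fewer cells with a transcript and less of it per cell cannot be told apart.

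Matrix and adhesion genes differed widely between the clones. Of the 60 genes, 41 had a level above 0 log2 RPKM in at least 3 libraries and were tested, and 1 of them (2.44%), FBN1, rose in the KO clones as a group, against 0.170% of all 11154 tested genes. None of the 41 fell as a group, against 0.242% of all, and 6 of them (14.6%) had an unadjusted p under 0.05 in that direction in limma, the test used throughout, against 8.59% of all. Across the 41 genes, the 4 clones spanned more than 1 log2 unit in 33 (80.5%), against 28.0% of all tested genes. The median span of the clones was 1.70 log2 units in these genes and 0.67 over all genes, while the WT libraries spanned a median of 0.192 in these genes and 0.193 over all. The KO clones had the larger SD in 39 of the 41 genes, against 90.4% of all tested genes.

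**Figure D1:**
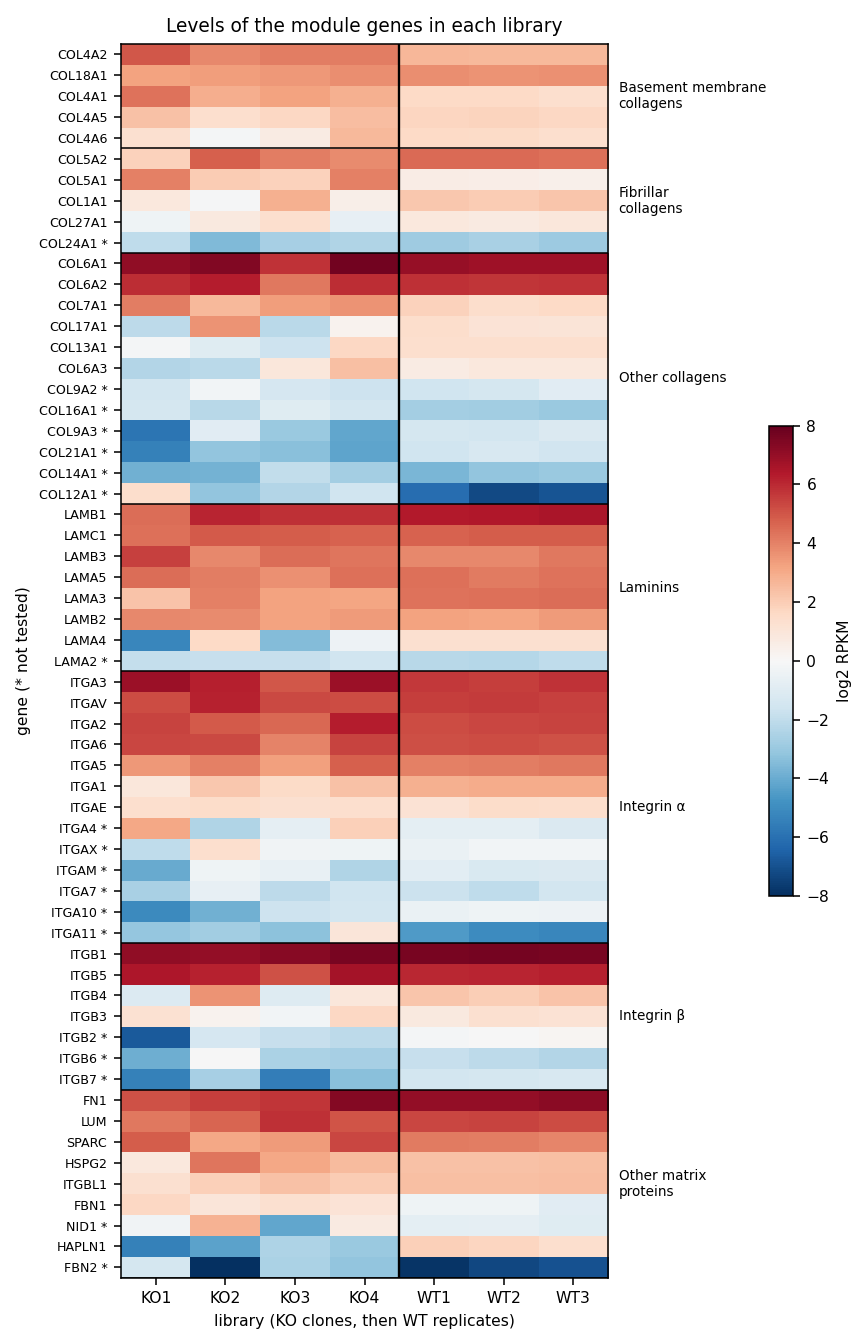
Levels of the module genes in log2 RPKM (colour, red above 0 and blue below) by library, with KO1 to KO4 left of the line and WT1 to WT3 right of it, grouped by protein class; stars mark the 19 genes that were not tested. The 3 WT columns look nearly alike, while the KO columns differ from each other in most classes; HAPLN1 lies between -5.38 and -2.5 in the clones and between 1.36 and 1.89 in WT.

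FBN1 (ENSG00000166147, chromosome 15, 48408306 to 48645849, minus strand, hg38) encodes fibrillin, the glycoprotein of the microfibrils that carry elastin. It was at 1.63, 0.98, 1.31 and 1.11 log2 RPKM in KO1 to KO4, against -0.35, -0.37 and -0.89 in WT1 to WT3, so that the lowest clone lay 1 log2 unit or more above the highest WT library. Every WT level was below 0, so FBN1 passed the filter for testing through the clones alone. The KO mean was 1.26 ± 0.28 (SD, n = 4) and the WT mean -0.54 ± 0.30 (SD, n = 3), a difference of 1.80 ± 0.25 log2 units (SE) or 3.48-fold (limma, adjusted p = 0.0420). Group differences below are also given ± SE in log2 units. In all, 46 tested genes (0.412%) passed, 19 higher and 27 lower in the clones. The call of FBN1 was lost without KO1 (adjusted p = 0.0554), KO3 (0.0553), KO4 (0.0848), WT1 (0.222), WT2 (0.281) or WT3 (0.213), and after centring on the neighbouring genes (0.0923), with differences of 1.62 to 1.89 in those fits.

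Seen over all 41 genes, 12 had a positive KO minus WT difference, against 47.0% of all tested genes, and the median difference was -0.21 log2 units, against -0.02 over all genes. The filter shaped which genes were counted: a gene above 0 only in the 3 WT libraries was tested, as HAPLN1 was. A gene above 0 in fewer than 3 clones and in no WT library was not tested, as with COL12A1, ITGA11 and ITGA4. In 10 of the 41 (24.4%) the 4 clones did not overlap the 3 WT libraries, against 19.0% of all tested genes. The clones lay above WT in COL4A1, COL4A2, COL5A1, COL7A1 and FBN1, and above WT in 8.88% of all tested genes. They lay below WT in LAMA3, LAMB1, ITGA1, HAPLN1 and ITGBL1, and below WT in 10.1% of all tested genes.

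Each clone was then set against WT alone, which asks how far that library stood from WT cells when it was assumed to vary like the WT libraries. In KO1, 33 of the 41 genes (80.5%) were called, against 44.1% of all tested genes: 11 (26.8%) rose and 22 (53.7%) fell, against 19.2% and 24.9%. In KO2, 27 (65.9%) were called, against 33.5% of all: 13 (31.7%) rose and 14 (34.1%) fell, against 15.5% and 18.0%. KO3 had 31 (75.6%), against 34.1% of all: 9 (22.0%) rose and 22 (53.7%) fell, against 14.2% and 19.9%. KO4 had 26 (63.4%), against 24.8% of all: 14 (34.1%) rose and 12 (29.3%) fell, against 10.4% and 14.4%. In each clone the share of these genes called was thus above the share of all tested genes in both directions. Median differences from WT over the 41 genes were -0.40, -0.04, -0.40 and 0.14 log2 units in KO1 to KO4, against medians between -0.02 and 0.00 over all tested genes.

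**Figure D2:**
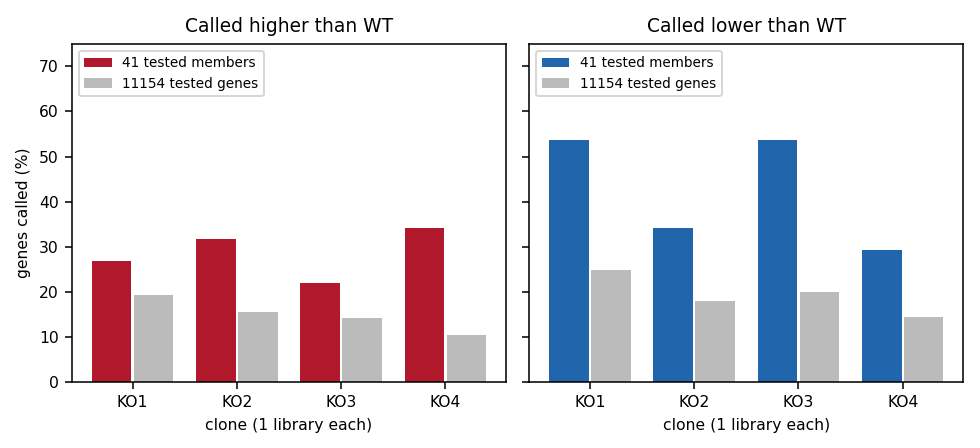
Percent of genes called higher (left) or lower (right) than WT in each clone, for the 41 tested genes of the module (coloured bars) and all 11154 tested genes (grey bars), limma with adjusted p under 0.05 and 1 library per clone. The coloured bar is the taller one in each pair; the lower calls reach 53.7% in KO1 and in KO3.

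These counts depend on the spread assumed for a lone clone. With the spread pooled over WT and the other clones, 5 genes were higher and 7 lower in KO1, 2 were lower and none higher in KO3, and none was called in KO2 or KO4. Without WT2, 9 genes were lower in KO2 and 7 in KO4.

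By this reading 8 of the 41 genes (19.5%) were called in 1 direction in all 4 clones, against 3.43% of all tested genes. COL4A1, COL4A2, COL5A1, COL7A1 and FBN1 rose, or 12.2% of the 41 against 1.13% of all, and LAMA3, ITGA1 and HAPLN1 fell, or 7.32% against 2.30%. The 4 comparisons share the 3 WT libraries, so they are not independent of each other.

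**Figure D3:**
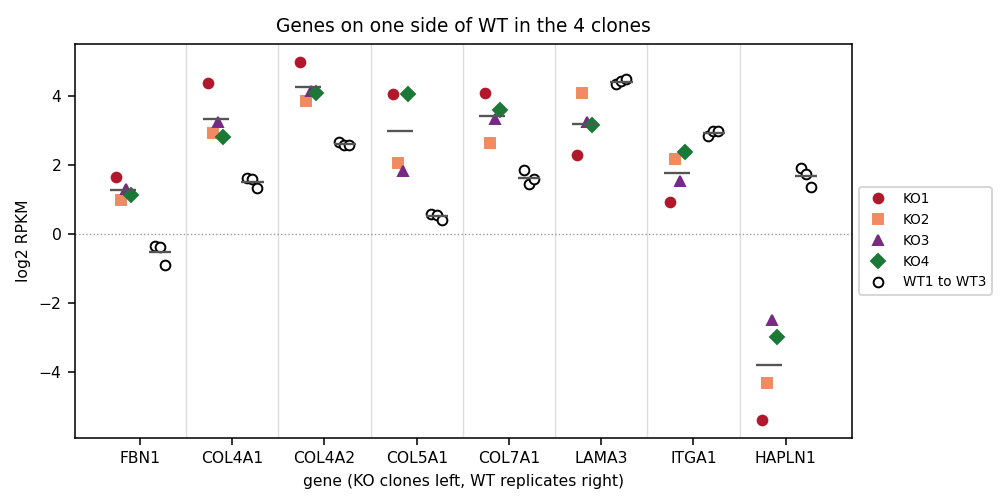
Levels in log2 RPKM of the 8 genes that were called in the same direction in each of the 4 clones when it was set against WT alone; coloured symbols are the 4 KO clones, open circles the 3 WT replicates and bars the group means. All 4 clones lie above WT in FBN1, COL4A1, COL4A2, COL5A1 and COL7A1 and below it in LAMA3, ITGA1 and HAPLN1.

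The bases before the starts of 4 of these genes are shown because COL4A1 and COL4A2 start head to head and moved together, while FBN1 was the gene that passed and HAPLN1 the one with the largest difference among the 41; COL4A5, which also starts close to a neighbour that encodes a collagen chain, is given beside them. The sequences are RefSeq windows on GRCh38.p14, read 5′ to 3′ on the strand of the gene named (for the collagen pair, on the strand of COL4A2). Capitals mark the letters GGGCGG (a GC box), CCAAT or TATAAA, or their reverse complements. The stretch between the starts of COL4A1 and COL4A2 has 126 bases, at chr13:110307158-110307283 on the plus strand. The others are the 250 bases before the start, at chrX:108439588-108439837 on the plus strand, chr15:48644971-48645220 on the minus strand and chr5:83720856-83721105 on the minus strand. These starts are those of RefSeq, whereas the gene positions given in the text are GENCODE spans, and the 2 differ. The FBN1 and HAPLN1 windows therefore lie inside the GENCODE spans, and the spans of COL4A1 and COL4A2 overlap.
COL4A1-COL4A2: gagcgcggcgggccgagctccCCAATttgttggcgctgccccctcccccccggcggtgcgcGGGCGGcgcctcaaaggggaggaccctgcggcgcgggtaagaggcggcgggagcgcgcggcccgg
COL4A5: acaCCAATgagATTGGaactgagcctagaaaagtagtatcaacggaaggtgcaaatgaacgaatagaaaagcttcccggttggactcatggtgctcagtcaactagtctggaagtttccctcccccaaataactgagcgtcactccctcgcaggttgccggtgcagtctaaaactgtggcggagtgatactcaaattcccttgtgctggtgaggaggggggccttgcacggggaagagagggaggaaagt
FBN1: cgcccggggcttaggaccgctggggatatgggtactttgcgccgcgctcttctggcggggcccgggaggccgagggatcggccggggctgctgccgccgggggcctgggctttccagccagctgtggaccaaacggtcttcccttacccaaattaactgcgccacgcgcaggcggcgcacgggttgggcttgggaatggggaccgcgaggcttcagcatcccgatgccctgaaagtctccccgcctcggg
HAPLN1: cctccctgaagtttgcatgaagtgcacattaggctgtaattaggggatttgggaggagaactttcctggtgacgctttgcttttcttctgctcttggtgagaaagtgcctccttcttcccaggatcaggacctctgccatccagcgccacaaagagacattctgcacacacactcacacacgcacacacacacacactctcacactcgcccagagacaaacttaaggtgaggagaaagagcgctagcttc
The COL4A1 and COL4A2 stretch holds 1 GC box and 1 CCAAT, and 80.2% of its bases are G or C. The COL4A5 window holds 2 CCAAT and no GC box, and the FBN1 and HAPLN1 windows hold none of the 3 motifs, with 69.6% and 50.8% G or C. Of 35116 RefSeq windows of 250 bases, 42.6% hold a GC box, 32% a CCAAT and 10.7% a TATAAA, and the median G or C content is 58%, so each motif is common. These matches are a description of the letters only. At 126 bases the COL4A1 and COL4A2 stretch is shorter than the windows counted, so the motif shares are no like measure for it.

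Basement membrane collagens went apart by chain pair. COL4A1 and COL4A2, whose chains wind into the collagen IV found under nearly all epithelia, were higher in every clone, whereas COL4A5 and COL4A6, whose chains form another collagen IV of a few tissues, were not. COL4A1 (chromosome 13, 110148963 to 110307233, minus strand, hg38) was at 4.35, 2.93, 3.25 and 2.81 log2 RPKM in KO1 to KO4, against 1.61, 1.60 and 1.32 in WT1 to WT3. COL4A2 (chromosome 13, 110305812 to 110513209, plus strand) was at 4.97, 3.83, 4.12 and 4.07 log2 RPKM in KO1 to KO4, against 2.65, 2.57 and 2.57 in WT1 to WT3. In both genes the lowest clone lay more than 1 log2 unit above the highest WT library, and KO1 was the highest clone. COL4A1 was 2.47 to 7.18 times the WT mean in the clones and COL4A2 2.35 to 5.20 times, and each passed in each clone set against WT alone (limma, adjusted p at most 0.00207 for COL4A1 and 0.000713 for COL4A2).

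As a group, the clones differed from WT by 1.83 ± 0.36 in COL4A1 and 1.65 ± 0.26 in COL4A2, and neither passed (limma, adjusted p = 0.0869 and 0.0538). Without KO1 both passed, at differences of 1.49 (adjusted p = 0.0448) and 1.41 (adjusted p = 0.0177). COL4A5 was at 2.36, 1.32, 1.63 and 2.46 log2 RPKM in KO1 to KO4, against 1.72, 1.77 and 1.64 in WT1 to WT3, so that KO1 and KO4 were above WT and the other clones at or below it. COL4A6, which starts 379 bases from COL4A5 on the other strand, was at 1.28, -0.18, 0.63 and 2.61 log2 RPKM in KO1 to KO4, against 1.61, 1.52 and 1.35 in WT1 to WT3. Its group difference of -0.41 ± 0.58 was near 0 without KO2, at 0.01. COL18A1, the source of endostatin, varied least in this class, at 3.21, 3.32, 3.45 and 3.75 log2 RPKM in KO1 to KO4, against 3.74, 3.58 and 3.64 in WT1 to WT3, and the groups overlapped.

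Fibrillar collagens moved in opposite directions. COL5A1 and COL5A2 encode chains of collagen V, which sets the width of collagen fibrils. COL5A1 was at 4.03, 2.05, 1.82 and 4.05 in KO1 to KO4, against 0.58, 0.54 and 0.39 in WT1 to WT3, so KO1 and KO4 stood well over KO2 and KO3, and all clones stood above WT. The group difference was 2.48 ± 0.60 and did not pass (limma, adjusted p = 0.134), while each clone set against WT alone passed, at 11.5, 2.92, 2.49 and 11.7 times the WT mean in KO1 to KO4. COL5A2, its partner, was at 1.83, 4.80, 4.09 and 3.80 log2 RPKM in KO1 to KO4, against 4.56, 4.53 and 4.38 in WT1 to WT3; KO1 was at 0.158 times the WT mean (limma, adjusted p = 8.90e-06) and KO2 stood above WT without passing.

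COL1A1, a chain of collagen I, the main collagen of connective tissue, was at 0.86, -0.09, 2.86 and 0.48 in KO1 to KO4, against 2.14, 2.02 and 2.21 in WT1 to WT3. It fell in KO1, KO2 and KO4 and rose in KO3, each against WT alone. COL27A1 was at -0.31, 0.77, 1.34 and -0.64 log2 RPKM in KO1 to KO4, against 0.87, 0.71 and 0.91 in WT1 to WT3, lower than WT in KO1 and KO4 and close to or above it in the other clones. Group differences were -1.10 ± 0.63 in COL1A1, -0.86 ± 0.62 in COL5A2 and -0.54 ± 0.48 in COL27A1, and none passed. COL24A1, the remaining member of the class, was at -3.51 to -2.0 in the clones, against -2.92 to -2.62 in WT, and was not tested.

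Among the other collagens COL7A1 was higher in every clone. It encodes the anchoring fibrils that fasten epithelia to the layer below. It was at 4.08, 2.62, 3.31 and 3.57 in KO1 to KO4, against 1.84, 1.43 and 1.57 in WT1 to WT3, or 5.50, 2.01, 3.24 and 3.88 times the WT mean in KO1 to KO4, each past the threshold against WT alone (limma, adjusted p at most 0.00713). The group difference of 1.78 ± 0.32 did not pass (limma, adjusted p = 0.0742), and passed without KO2, at 2.04 (adjusted p = 0.0181). No other tested gene of the class kept to one side of WT.

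COL6A1, COL6A2 and COL6A3 encode the chains of collagen VI, which forms beaded filaments next to basement membranes. COL6A1 was at 7.12, 7.39, 5.78 and 7.71 log2 RPKM in KO1 to KO4, against 7.0, 6.80 and 6.80 in WT1 to WT3. COL6A2, its neighbour on chromosome 21, was at 5.89, 6.28, 4.19 and 5.93 in KO1 to KO4, against 5.85, 5.73 and 5.78 in WT1 to WT3. Both were lowest in KO3, at 0.470 and 0.332 times the WT mean, and both rose in KO2. COL6A3, on another chromosome, was at -2.35, -2.17, 0.90 and 2.39 log2 RPKM in KO1 to KO4, against 0.67, 0.82 and 0.86 in WT1 to WT3, low in both early-stop clones and highest in KO4. Its levels in KO1 and KO2 were 0.113 and 0.129 times the WT mean, and in KO4 3.05 times (limma, adjusted p = 3.80e-05, 0.000340 and 0.00188). The group differences of the collagen VI genes were 0.13 ± 0.42, -0.21 ± 0.46 and -1.09 ± 1.14.

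COL17A1, the transmembrane collagen of hemidesmosomes, was at -2.07, 3.61, -2.19 and 0.29 in KO1 to KO4, against 1.39, 1.09 and 1.01 in WT1 to WT3. KO2 was at 5.44 times the WT mean, and KO1 and KO3 were at 0.107 and 0.0982 times the WT mean. COL13A1, another transmembrane collagen, was at -0.17, -0.97, -1.64 and 1.64 log2 RPKM in KO1 to KO4, against 1.33, 1.35 and 1.33 in WT1 to WT3; KO4 stood above WT without passing, and the other clones fell. Neither passed as a group (-1.25 ± 1.32 and -1.63 ± 0.70).

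LAMA3 and LAMB3 encode chains of a laminin that binds epithelial cells to the basement membrane through hemidesmosomes. LAMA3 was at 2.28, 4.06, 3.22 and 3.14 in KO1 to KO4, against 4.33, 4.41 and 4.47 in WT1 to WT3, lower than WT in each clone. LAMB3 was at 5.47, 3.83, 4.47 and 4.26 log2 RPKM in KO1 to KO4, against 3.86, 3.85 and 4.24 in WT1 to WT3, above every WT library in KO1, KO3 and KO4 and past the threshold against WT alone in KO1 only. The 2 genes thus went different ways within KO1, at 0.229 (LAMA3) and 2.80 (LAMB3) times the WT mean (limma, adjusted p = 1.91e-05 and 0.000907).

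As a group, LAMA3 differed by -1.23 ± 0.36 (limma, adjusted p = 0.183), and it passed without KO2, at -1.53 (adjusted p = 0.0415). LAMB3 differed by 0.52 ± 0.36. LAMB1 and LAMC1 encode chains shared by many laminins. LAMB1 was at 4.49, 6.11, 5.82 and 5.83 in KO1 to KO4, against 6.34, 6.38 and 6.55 in WT1 to WT3, below WT in every clone, with KO1 lowest by more than 1 log2 unit. The genes within 5 Mb of LAMB1 had median differences of -0.75, -0.30, -0.37 and -0.33 in KO1 to KO4, and its group difference was -0.86 ± 0.36 (limma, adjusted p = 0.310). LAMC1 varied little, at 4.41 to 4.88 in the clones, against 4.72 to 4.87 in WT.

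LAMA4, an alpha chain typical of vessels and muscle, spanned 6.82 log2 units among the clones, the most of the 41 genes, at -5.22, 1.60, -3.46 and -0.40 log2 RPKM in KO1 to KO4, against 1.27, 1.26 and 1.30 in WT1 to WT3. KO2 stood just above WT, whereas KO1 and KO3 were at 0.0111 and 0.0375 times the WT mean. KO1 had an estimated 15.0 reads there, against 1574 to 1741 in the WT libraries. LAMA5 was at 3.65 to 4.45 in the clones, against 4.18 to 4.40 in WT, and LAMB2 at 3.19 to 3.83, against 3.16 to 3.39. LAMA2, the remaining laminin, lay above WT in all clones at a low level, -1.89 to -1.61 against -2.29 to -2.06, and was not tested.

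Of the 7 tested integrin alpha subunits, 1 rose and 3 fell in KO1, 2 rose and 2 fell in KO2, none rose and 5 fell in KO3, and 3 rose and 2 fell in KO4, each against WT alone. Over all tested genes, as given above, 10.4% to 19.2% rose and 14.4% to 24.9% fell in a clone. ITGA1, a subunit that binds collagen and laminin, was the single tested one below WT in every clone. It was at 0.92, 2.17, 1.52 and 2.37 in KO1 to KO4, against 2.84, 2.96 and 2.98 in WT1 to WT3, or 0.250, 0.594, 0.378 and 0.682 times the WT mean in KO1 to KO4, each past the threshold against WT alone (limma, adjusted p at most 0.0210). The group difference of -1.18 ± 0.33 did not pass (limma, adjusted p = 0.170). Its exons overlap those of PELO on the same strand, so reads of the pair could have been counted for either. ITGA2, another collagen-binding subunit, lies 30.1 kb away and was at 5.42, 4.88, 4.56 and 6.26 log2 RPKM in KO1 to KO4, against 5.19, 5.34 and 5.43 in WT1 to WT3, lower than WT in KO2 and KO3 and higher in KO4.

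ITGA3 and ITGA6 encode laminin-binding subunits. ITGA3 was at 6.86, 6.19, 4.97 and 6.83 in KO1 to KO4, against 5.64, 5.55 and 5.77 in WT1 to WT3, above WT in KO1, KO2 and KO4 and below it in KO3. ITGA6 was at 5.34, 5.28, 3.95 and 5.38 log2 RPKM in KO1 to KO4, against 5.15, 5.20 and 5.08 in WT1 to WT3; KO3 alone lay apart, at 0.437 times the WT mean (limma, adjusted p = 0.000500). ITGA5, the fibronectin-binding subunit, was at 3.45, 4.06, 3.30 and 4.78 in KO1 to KO4, against 4.02, 4.08 and 4.21 in WT1 to WT3, lower in KO1 and KO3 and higher in KO4. The group differences were 0.56 ± 0.43, -0.16 ± 0.35 and -0.21 ± 0.34, and none passed. ITGAV, which pairs with several beta subunits and binds fibronectin and vitronectin, was at 5.19 to 6.14 in the clones, against 5.47 to 5.60 in WT, with KO2 the single clone above WT. ITGAE, the partner of ITGB7 that binds E-cadherin, hardly moved, at 1.26 to 1.44 in the clones, against 1.17 to 1.49 in WT.

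Of the 4 tested integrin beta subunits, 1 rose and 2 fell in KO1 and likewise in KO2, all 4 fell in KO3, and 1 rose and 1 fell in KO4, against the same shares of all tested genes. ITGB1, the common partner of most alpha subunits, had the highest mean level of all 60 genes and was at 7.09, 7.04, 7.26 and 7.61 log2 RPKM in KO1 to KO4, against 7.59, 7.63 and 7.57 in WT1 to WT3. Its clones stood at 0.703, 0.680, 0.792 and 1.01 times the WT mean, with KO4 level with WT. ITGB4, the partner of ITGA6 in hemidesmosomes, was at -1.08, 3.60, -1.01 and 0.93 in KO1 to KO4, against 2.20, 1.99 and 2.29 in WT1 to WT3, so it was high in KO2 and low in KO1 and KO3.

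ITGB4 and COL17A1, both components of hemidesmosomes, lay on the same side of WT in each clone: above it in KO2 and below it in KO1, KO3 and KO4. ITGA6 did not share this pattern and was above WT in KO1, KO2 and KO4 and below it in KO3. ITGB5, a partner of ITGAV, was at 6.50, 6.16, 5.08 and 6.67 log2 RPKM in KO1 to KO4, against 6.05, 6.10 and 6.20 in WT1 to WT3, and KO3 was the lowest clone. ITGB3, another partner of ITGAV, was at 1.20, 0.27, -0.23 and 1.68 in KO1 to KO4, against 0.81, 1.29 and 1.13 in WT1 to WT3. Differences of the group were -0.35 ± 0.15 for ITGB1, -1.55 ± 1.07 for ITGB4, -0.01 ± 0.35 for ITGB5 and -0.35 ± 0.45 for ITGB3, with adjusted p of 0.316 or more in limma.

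Among the other matrix proteins HAPLN1 had the largest difference. The gene (chromosome 5, 83637805 to 83721613, minus strand, hg38) encodes the link protein that ties hyaluronan to proteoglycans. It was at -5.38, -4.30, -2.5 and -2.97 log2 RPKM in KO1 to KO4, against 1.89, 1.72 and 1.36 in WT1 to WT3, so all clones lay more than 3 log2 units under the lowest WT library. HAPLN1 thus passed the filter for testing through WT alone. The estimated reads behind these levels were 8.0, 22.0, 53.9 and 62.0 in KO1 to KO4, against 1453, 1448 and 1066 in WT1 to WT3. Each clone passed against WT alone (limma, adjusted p at most 0.000391). The group difference of -5.45 ± 0.83, a 43.6-fold lower level, missed the threshold (limma, adjusted p = 0.0537). It passed on log2(RPKM + 0.5), where the difference was -2.63 (adjusted p = 0.0023), and without KO1 (0.0448), KO2 (0.0326) or KO3 (0.0396).

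FN1, the gene of fibronectin, was at 5.07, 5.51, 5.74 and 7.36 in KO1 to KO4, against 7.04, 7.05 and 7.22 in WT1 to WT3. KO4 stood slightly above the WT mean and the other clones at 0.244, 0.331 and 0.388 times that mean in KO1 to KO3 (limma, adjusted p at most 0.000484). HSPG2, which encodes perlecan, the heparan sulfate proteoglycan of basement membranes, was at 0.86, 4.27, 3.11 and 2.5 log2 RPKM in KO1 to KO4, against 2.36, 2.32 and 2.41 in WT1 to WT3, lowest in KO1 and highest in KO2. SPARC, a collagen-binding glycoprotein, was at 4.85, 3.10, 3.39 and 5.34 in KO1 to KO4, against 4.17, 4.09 and 3.90 in WT1 to WT3, above WT in KO1 and KO4 and below it in KO2 and KO3.

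LUM, the keratan sulfate proteoglycan lumican, lay at 4.21 to 5.85 in the clones, against 5.19 to 5.38 in WT, and the median of its neighbours within 5 Mb was -0.30 to -0.44 in the clones. ITGBL1 was at 1.26, 1.90, 2.37 and 2.02 log2 RPKM in KO1 to KO4, against 2.39, 2.40 and 2.49 in WT1 to WT3, with KO3 close under WT and KO1 lowest. As a group these genes differed by -1.18 ± 0.49 (FN1), 0.32 ± 0.69 (HSPG2), 0.12 ± 0.54 (SPARC), -0.37 ± 0.35 (LUM) and -0.54 ± 0.25 (ITGBL1), and none passed.

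With each clone set against WT alone, 16 of the 41 genes (39.0%) were called higher in at least 1 clone and lower in another, against 12.8% of all tested genes; the comparisons share the WT libraries. Of these, COL17A1, ITGB4, HSPG2, COL6A3, COL1A1, SPARC, COL4A6, COL6A1 and COL6A2 spanned 1.94 to 5.79 log2 units among the clones. The genes ITGA2, ITGA3, ITGA5, ITGAV, ITGB5 and LUM, spanned 0.95 to 1.88 log2 units among the clones and 0.13 to 0.23 among the WT libraries.

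**Figure D4:**
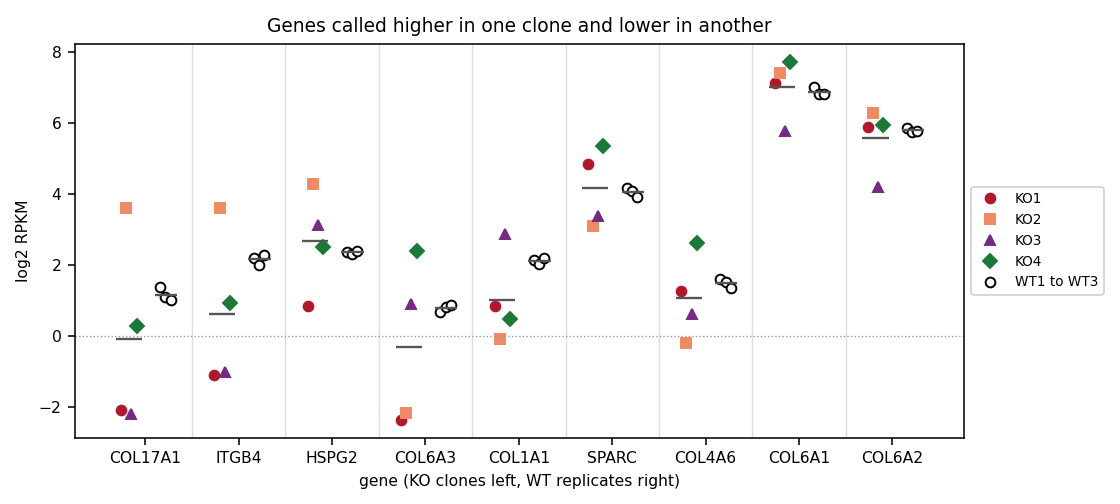
Levels in log2 RPKM of 9 genes with wide spans among those called higher in one clone and lower in another; coloured symbols are the 4 KO clones, open circles the 3 WT replicates and bars the group means. KO2 is the top clone in COL17A1, ITGB4 and HSPG2, KO3 the lowest in COL6A1 and COL6A2, and the WT circles stay close together in each gene.

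Late-stop clones (KO3, KO4) were set against early-stop clones (KO1, KO2) to ask whether the place of the stop codon went with the levels. No gene of the 11154 passed in limma (0.00%), and 436 (3.91%) had an unadjusted p under 0.05, 7 of them among the 41 (17.1%), 6 higher and 1 lower in the late-stop clones. Among the 41 genes COL6A3 had the smallest p, with a difference of 3.91 ± 0.51 (SE) log2 units (limma, adjusted p = 0.603). It was at 0.90 and 2.39 in KO3 and KO4 and at -2.35 and -2.17 in KO1 and KO2. LAMB2, a laminin beta chain, was the one lower, at -0.51 ± 0.15. Each group has 2 clones, and the counts turned on single clones: without KO1, 1 of the 41 genes was higher and 2 were lower, with 293 genes called in all, and without KO2, 5 were higher and 1 lower, with 279 in all.

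Low levels kept 19 of the 60 genes out of the tests, of which 13 were below 0 log2 RPKM in every library. In 4 of the 19 (21.1%) all clones lay above WT, in 4 (21.1%) all lay below, and in 11 the groups overlapped. Of all 1988 genes that were not tested for low levels, 12.8% lay above WT in all clones and 6.34% below. COL12A1, a collagen that sits on the surface of fibrils, was at 1.39, -3.13, -2.33 and -1.59 in KO1 to KO4, against -6.10, -7.22 and -6.89 in WT1 to WT3, with an estimated 1597 reads in KO1, against 5 to 10 in the WT libraries. ITGA11, a collagen-binding subunit, was at -3.07, -2.79, -3.28 and 0.94 log2 RPKM in KO1 to KO4, against -4.55, -5.01 and -5.23 in WT1 to WT3, and KO4 was by far the highest. COL16A1 and LAMA2 were the other genes with all clones above WT, COL16A1 at -2.23 to -0.95 in the clones, against -3.00 to -2.72 in WT.

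The 4 untested genes with all clones below WT were COL21A1, ITGA10, ITGB2 and ITGB7. ITGB2, the beta subunit of leukocyte integrins, was at -6.70, -1.35, -1.86 and -2.07 in KO1 to KO4, against -0.13, -0.02 and 0.14 in WT1 to WT3. ITGB7, its relative that pairs with ITGA4 and ITGAE, was at -5.40, -2.65, -5.56 and -3.33 log2 RPKM in KO1 to KO4, against -1.44, -1.38 and -1.28 in WT1 to WT3. ITGA10 was at -5.07, -3.87, -1.66 and -1.49 in KO1 to KO4, against -0.55, -0.36 and -0.41 in WT1 to WT3, and COL21A1 at -5.40 to -3.13 in the clones, against -1.60 to -1.25 in WT. FBN2, the other fibrillin, was at -1.42, -7.99, -2.55 and -3.18 log2 RPKM in KO1 to KO4, against -7.84, -7.30 and -6.98 in WT1 to WT3; KO2 matched WT, with an estimated 3.0 reads, and KO1 was highest, with an estimated 241.

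ITGA4, the subunit that binds fibronectin and VCAM1, was at 3.06, -2.44, -0.72 and 1.91 in KO1 to KO4, against -0.78, -0.79 and -1.14 in WT1 to WT3, above WT in KO1 and KO4. NID1, which links laminin to collagen IV, was at -0.30, 2.78, -4.19 and 0.71 log2 RPKM in KO1 to KO4, against -0.78, -0.75 and -0.96 in WT1 to WT3, highest in KO2 and lowest in KO3. The remaining members with overlapping groups, COL14A1, COL9A2, COL9A3, COL24A1, ITGA7, ITGAM, ITGAX and ITGB6, stayed between -5.81 and 1.37 in the clones and between -3.67 and -0.20 in WT. These members have no adjusted p.

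Genes that build, cut or bind the matrix were read from 5 further lists, and none of their tested members passed in KO against WT. Of enzymes and chaperones of collagen maturation, 20 were tested, 10 had a positive difference and the median was -0.01 log2 units. CRTAP, part of a complex that hydroxylates collagen prolines, was at 4.82, 4.61, 4.52 and 4.84 in KO1 to KO4, against 5.11, 5.17 and 5.21 in WT1 to WT3 (difference -0.47 ± 0.12 (SE), limma, adjusted p = 0.143). PLOD2, a lysyl hydroxylase, and LOXL1, a lysyl oxidase, had differences of -0.36 ± 0.11 and -1.03 ± 0.38. Of matrix proteases and their inhibitors 24 were tested, 13 were positive and the median was 0.01. ADAM19, a membrane protease, was at 0.61, 0.55, 0.50 and 2.46 in KO1 to KO4, against -1.21, -1.15 and -1.03 in WT1 to WT3 (2.16 ± 0.51, adjusted p = 0.132). HTRA1 and ADAMTS1, both secreted proteases, differed by 0.63 ± 0.25 and -1.75 ± 0.69.

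Of 39 tested adaptors of focal adhesions, the sites where integrins meet the cytoskeleton, 17 were positive and the median was -0.03. CD9, a tetraspanin that associates with integrins, was at 3.24, 4.78, 4.91 and 4.60 in KO1 to KO4, against 5.86, 5.92 and 6.02 in WT1 to WT3 (-1.55 ± 0.38, adjusted p = 0.140). TNS2, a tensin, and GIT1, a scaffold of paxillin, differed by -1.11 ± 0.31 and 0.40 ± 0.12. Of 18 tested proteoglycans and matrix receptors, 11 were positive and the median was 0.18. SPOCK1, a secreted proteoglycan, was at 4.27, -0.58, 3.98 and 3.52 in KO1 to KO4, against -2.47, -3.05 and -2.94 in WT1 to WT3 (5.62 ± 1.12, adjusted p = 0.0912). SRGN and GPC6, also proteoglycans, differed by 2.13 ± 0.50 and -0.51 ± 0.15. Of 15 tested matricellular and other glycoproteins, 8 were positive and the median was 0.14. NOV was at 0.84, 0.48, 0.76 and 0.88 in KO1 to KO4, against -0.69, -0.61 and -1.88 in WT1 to WT3 (1.80 ± 0.37, adjusted p = 0.0964), and TNC, tenascin C, and EFEMP1, a fibulin, differed by 1.66 ± 0.44 and -0.89 ± 0.23. Every WT level of ADAM19, SPOCK1 and NOV was below 0, so these genes passed the filter for testing through the clones alone. They are among the positive genes counted in their lists. In all 5 lists the counts of calls stood at 0, against 0.412% of all tested genes. The medians lay between -0.03 and 0.18 log2 units, against -0.02 over all genes.

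Stretches of chromosome shifted in the clones, so each gene was also set beside the tested genes within 5 Mb. The widest shifts around the 60 genes were in KO1, where the neighbours of NID1, LAMC1, LAMB1 and LAMB3 had medians of -0.79, -0.77, -0.75 and -0.63. Around COL4A5 the median was -0.39, -0.38, -0.57 and -0.47 in KO1 to KO4, although COL4A5 itself rose in KO1 and KO4. Around COL5A1 it was 0.55, 0.38, 0.16 and 0.32, against differences of 3.53, 1.55, 1.32 and 3.55 in the gene. The neighbours of COL4A1 and COL4A2 were at 0.18, -0.26, -0.16 and 0.09, those of FBN1 at 0.02 to 0.19 and those of HAPLN1 at -0.26 to 0.09.

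**Figure D5:**
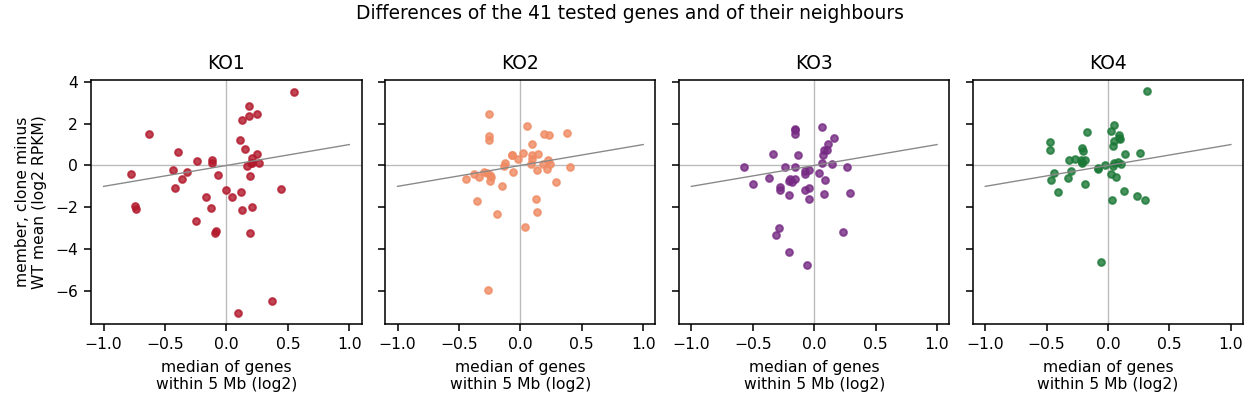
Difference of each of the 41 tested genes from the WT mean (vertical axis, log2 RPKM) against the median difference of the tested genes within 5 Mb (horizontal axis, log2), 1 panel per KO clone; the line marks equal values. Neighbour medians stay within about 0.8 of 0 while the genes reach from -7.03 to 3.55.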

How the data were processed

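Column-purified, DNase-treated total RNA went into TruSeq libraries, per the labels' protocols. The authors deposited 1 table of log2 RPKM with a column for each library. STAR 2.5.3a, HTSeq 0.11.2, edgeR and Trim Galore 0.4.1 with build hg38 were used, per the submitters' processing notes; the role of each, the annotation, the prior count and the use of strand are not given in the sources used here. With an assumed prior count of 0.25 reads, the library size was searched that made most low values (under 100 reads) whole within 0.1 reads. The best size did so in 100% of cases, on 13 (KO1) to 43 (KO4) values per library, and gave the estimated library sizes and reads. The search maximised this share, so it is no separate check of the estimates. Of the 60 genes, 27 overlap exons of another gene in GENCODE release 29, and 8 a gene of the table: COL18A1, COL9A3, ITGA1, ITGA7, ITGB2, ITGB7, LAMA5 and LAMB1. Their reads could be split or shared.

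Genes above 0 log2 RPKM in at least 3 of 7 libraries were tested (11154) with limma 3.58.1 in R 4.3.3 (moderated variances with a trend, Benjamini-Hochberg over all tested genes, adjusted p under 0.05, two-sided), without a pseudocount or further scaling. Single clones were fitted in a model with 5 groups, late-stop against early-stop clones in one with 3, so that all 7 libraries entered. The procedure was also run on simulated data. For single clones the simulated clones varied like the WT libraries, so the simulation does not test whether a lone clone does. WT libraries are biological replicates per the labels; each clone is 1 library. A clone and a WT library with the same number showed correlations of their deviations of 0.060, 0.066 and -0.012, which gave no sign of pairing. The clones differed more among themselves than the WT libraries did, so a small effect shared by a pair could be missed. Positions are from GENCODE release 29 for 12511 of 13142 genes (95.2%), 207 through synonyms, and 47 of the 60 genes matched a RefSeq promoter entry.

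Values are given per library for genes that passed, the 4 with the largest differences in each class, genes called in 1 direction in all clones or in opposite directions, and the 3 highest. COL12A1, ITGA11, ITGB2, ITGB7, ITGA10, FBN2, ITGA4, NID1, COL18A1 and ITGA2 were added after their values had been seen. The values of 1 gene of the module are not reported here, although it is in the counts. The members and lists were chosen with earlier results of these data known. Alternatives covered the filter, a pseudocount of 0.5, quantile normalization, centring on genes within 5 Mb (at least 10), the trend, the spread, a block and leaving out each library.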

Additional observations from a re-analysis of the deposited data

Results flagged for a closer look

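In ITGA6 the clone KO3 lay far from the other clones, at 3.95 log2 RPKM, with a gap to the nearest clone that was 0.928 of the range of the 4 clones, above Dixon's critical value. This check was made on 33 genes, and chance marks about 1 group in 20.

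COL6A3 lay below the WT mean in both early-stop clones and above it in both late-stop clones, a late-stop minus early-stop difference of 3.91 log2 units. The test of that difference did not pass over all genes (limma, adjusted p = 0.603). KO3 was close to WT, 0.11 log2 units above the WT mean, whereas KO4 was 1.61 above it.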

How the results depend on the processing

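For KO against WT, 1 of the 41 genes was higher and none lower. With a pseudocount of 0.5 RPKM 2 were higher and 1 lower, with quantile normalization 2 higher, without the filter, which tested all 60, 1 lower and without the variance trend 1 lower. Requiring a level above 0 in all 7 libraries left 30 genes, of which 1 was higher. That gene was not FBN1, which this filter left out. After centring on neighbours none was higher, and leaving out 1 library gave 0 to 3 higher and 0 to 2 lower. Over all genes, 46 passed as reported, 114 with quantile normalization (56.1% of them higher, against 41.3%), 1 after centring and 0 to 236 without 1 library: 0 without any WT library, 1 without KO4, 51 without KO1, 87 without KO3 and 236 without KO2. With the replicate number as a block 0 genes passed and none of the 41 was called. Whether the numbers pair the libraries is not settled.

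For single clones, the pooled spread left 524, 0, 36 and 0 genes in KO1 to KO4, against 4919, 3736, 3805 and 2769 as reported, and among the 41 genes 5 higher and 7 lower in KO1, 2 lower in KO3 and 0 elsewhere. Requiring a level above 0 in all 7 libraries, which left 30 genes of the module tested, gave 14, 8 and 4 lower in KO1, KO2 and KO4; centring left 9 and 7 lower in KO2 and KO4; no filter, with all 60 tested, gave 21 and 14 higher in KO2 and KO3. Leaving out 1 library gave 3088 to 5833, 1743 to 4867, 1706 to 4906 and 1153 to 3972 genes in KO1 to KO4, lowest without WT2, with 9 to 11, 9 to 15, 8 to 11 and 13 to 16 of the 41 higher and 19 to 22, 9 to 17, 19 to 23 and 7 to 13 lower. For late-stop against early-stop clones it gave 0 to 293 genes, 0 to 5 of the 41 higher and 0 to 2 lower.

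Of 381 values of 28 genes under these alternatives, 351 kept their direction and side of the threshold, 8 lost the call, all of FBN1, 14 gained one and 8 changed sign. These were COL4A6 at 0.0324 after centring and 0.0097 without KO2, ITGA5 at 0.0129 and ITGA6 at 0.0369 after centring, ITGA6 at 0.190 without KO3, and ITGB5 at 0.0482 with quantile normalization, 0.327 without KO3 and 0.0301 without WT3. Without 1 library COL4A6 lay between -0.92 and 0.0097, ITGA6 between -0.29 and 0.19 and ITGB5 between -0.20 and 0.33. The cause was not tested. Genes near the level without reads, such as HAPLN1 in KO1, rest on few reads, so their differences depend on the prior count.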
